A study of Homo sapiens with 10 samples.

Results

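The nuclear transfer RNA (tRNA) genes were examined as a class of very short genes in HCT116, an established human colorectal carcinoma line. All RefSeq genes of type tRNA on chromosomes 1 to 22 and X of GRCh38.p14 were taken, each with a window of 1 kb on both sides. This gave 429 of the 465 tRNA genes in the annotation and of 58419 RefSeq genes of all kinds placed on these chromosomes. The 22 tRNA genes of the mitochondrial genome and 14 on scaffolds or patches were left out. Gene bodies were 70 to 108 bp long, with a median of 73 bp. With a gap of 10 kb as the limit, the genes fell into 216 loci, of which 136 held 1 gene and 80 held a cluster of 2 or more, with 293 genes together.

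The measurements were CUT&Tag, in which an antibody tethers a fused transposase to chromatin so that DNA beside the bound protein is cut and tagged. Wild-type cells were labelled with an antibody against POLR1A, the catalytic subunit of RNA polymerase I (3 samples), POLR2A, that of RNA polymerase II (3 samples), H3K4me3, a histone mark of active promoters (1 sample), or H3K9me3, a mark of heterochromatin (3 samples). The labels give no treatment, and all groups are the same line, so the comparisons are between targets and between classes of genes. The deposited values used were 1 peak list for each target, with 3812 peaks for POLR1A, 19997 for POLR2A, 17181 for H3K4me3 and 16414 for H3K9me3 on these chromosomes. Fold enrichment is the authors' own value for each peak, a linear ratio, and is used only within its own list. No list gives values per replicate, so no spread between replicates could be stated. Intervals given with shares are 95% intervals by the exact Clopper-Pearson method. They hold counting error alone and treat genes as independent, although neighbours can share a peak. Read depth is unknown from peak lists. Of 12 colorectal epithelial markers, EPCAM, CDH1, CDX2, KRT8, KRT18 and KRT19 had both a POLR2A and an H3K4me3 peak within 1 kb of an end (50%, interval 21.1 to 78.9), and CDX1, CEACAM5, CEACAM6, KRT20, LGR5 and VIL1 had neither. Over all 19821 protein-coding genes, 41.3% had POLR2A and 54.6% H3K4me3 at either end, both inside the interval of the epithelial markers. Of 5 leukocyte markers CD14 had a POLR2A peak (fold 2.75) and none had H3K4me3, and of 5 fibroblast markers COL1A1 had an H3K4me3 peak (fold 8.87) and none had POLR2A.

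Transfer RNAs carry amino acids to the ribosome, and their genes are the classical templates of RNA polymerase III. That enzyme is recruited through promoter elements inside the gene, the A box and the B box, which are bound by the factor TFIIIC, and TFIIIB is then placed just upstream of the gene. RNA polymerase I makes the large ribosomal RNA precursor in the nucleolus, and RNA polymerase II makes messenger RNAs and many small nuclear RNAs. RNA polymerases I and III share the subunits encoded by POLR1C and POLR1D, whereas POLR1A belongs to RNA polymerase I only. RNA polymerase II and H3K4me3 have been described beside tRNA genes in other cells. A tRNA gene symbol gives the amino acid by its letter, the anticodon, a number for the mature sequence and a number for the copy, so that TRG-CCC2-1 and TRG-CCC2-2 are copies that carry glycine with anticodon CCC.

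No tRNA gene had an entry of its own in the RefSeq promoter table, but 27 tRNA genes overlapped the 300-base promoter window of another gene and 14 lay whole inside such a window. The sequences of 4 windows are shown, since they cover the kinds of tRNA gene described below. TRG-CCC2-1 had the highest H3K4me3 value of all tRNA genes and both polymerases, TRR-ACG2-1 had both polymerases and H3K4me3, TRI-TAT2-2 had H3K4me3 alone, and TRA-AGC2-2 had no peak of any list. Each is from RefSeq, GRCh38.p14, on the minus strand of the genome as read by the neighbouring gene, 250 bases before to 50 after its start, and capitals mark the bases of the tRNA gene. The windows are chr2:70248744-70249043 (start of TIA1, with 53 bases of the tRNA gene), chr3:45688833-45689132 (LIMD1-AS1), chr6:27020257-27020556 (LARRPM) and chr6:28863628-28863927 (LINC01623).
TRG-CCC2-1: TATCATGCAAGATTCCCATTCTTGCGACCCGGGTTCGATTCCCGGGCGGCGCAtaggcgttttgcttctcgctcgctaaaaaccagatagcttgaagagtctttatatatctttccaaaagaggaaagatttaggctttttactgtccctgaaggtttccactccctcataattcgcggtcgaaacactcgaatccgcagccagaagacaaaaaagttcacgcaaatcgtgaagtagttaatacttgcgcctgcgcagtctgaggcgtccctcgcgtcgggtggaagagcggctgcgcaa
TRR-ACG2-1: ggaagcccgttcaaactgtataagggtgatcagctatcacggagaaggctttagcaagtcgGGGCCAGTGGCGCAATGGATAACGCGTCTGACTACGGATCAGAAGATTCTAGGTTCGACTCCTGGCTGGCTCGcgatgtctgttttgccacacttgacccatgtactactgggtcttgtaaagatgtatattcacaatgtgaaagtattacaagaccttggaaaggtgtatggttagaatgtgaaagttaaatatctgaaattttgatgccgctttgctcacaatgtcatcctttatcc
TRI-TAT2-2: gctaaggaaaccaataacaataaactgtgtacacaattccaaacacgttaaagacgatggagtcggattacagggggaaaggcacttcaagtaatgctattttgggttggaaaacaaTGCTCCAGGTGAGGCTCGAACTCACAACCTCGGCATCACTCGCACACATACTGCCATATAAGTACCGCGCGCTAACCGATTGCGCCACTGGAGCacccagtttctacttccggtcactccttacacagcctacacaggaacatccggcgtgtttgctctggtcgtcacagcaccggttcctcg
TRA-AGC2-2: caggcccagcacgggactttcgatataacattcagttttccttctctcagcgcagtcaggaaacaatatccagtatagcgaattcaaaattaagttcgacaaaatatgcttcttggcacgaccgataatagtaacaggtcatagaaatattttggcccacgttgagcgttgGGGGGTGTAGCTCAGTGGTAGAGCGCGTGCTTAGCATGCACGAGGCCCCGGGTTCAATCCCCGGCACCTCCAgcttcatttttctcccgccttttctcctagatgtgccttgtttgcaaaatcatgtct

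On both strands of the windows 2 motifs were searched. The core of the B box, GGTTCGA, lay inside 9 of the 14 whole tRNA genes (64.3%), against 0.860% of all 35116 promoter windows. In the windows printed it began at base 32 of the TRG-CCC2-1 window and at base 113 of the TRR-ACG2-1 window, counted from 1 at the left end, on the printed strand in both. TATAAA lay inside none of the 14 genes and in 1 of their windows (7.14%), against 11.5% of all promoter windows. These matches describe letters only. The genes TRI-TAT2-2 and TRA-AGC2-2 held neither motif.

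In the lists as deposited, POLR2A and H3K4me3 peaks lay within 1 kb of about as many tRNA genes as each other, POLR1A peaks of fewer and H3K9me3 peaks of very few. This order goes with the length of the lists, since the POLR1A list is the shortest. With each list reduced to its 3812 strongest peaks the order turned, with POLR1A at 9.56% of tRNA genes, POLR2A at 6.06%, H3K4me3 at 3.50% and H3K9me3 at 0.699%, so each share is best read against its own background. A POLR2A peak was found at 158 of 429 tRNA genes, 36.8% (95% interval 32.3 to 41.6), against 39.8% of 22132 protein-coding gene starts and 22.1% of 39642 protein-coding gene ends, start and finish counted alike. An H3K4me3 peak was found at 140 tRNA genes, 32.6% (28.2 to 37.3), against 54.5% of protein-coding starts and 29.2% of protein-coding ends. A POLR1A peak was found at 41 tRNA genes, 9.56% (6.95 to 12.7), against 10.9% of protein-coding starts and 5.72% of protein-coding ends. An H3K9me3 peak was found at 6 tRNA genes, 1.4% (0.515 to 3.02), against 2.09% of protein-coding starts and 1.42% of protein-coding ends. With all 429 genes and the lists as deposited, the interval at tRNA genes held the share at protein-coding starts for POLR1A, POLR2A and H3K9me3. For H3K4me3 it lay below that share. Without tRNA genes that have a protein-coding end within 2 kb, POLR1A was at 6.76% (4.38 to 9.89) and POLR2A at 28.2% (23.5 to 33.2). Both intervals then lay below the shares at starts. With lists of 3812 peaks POLR2A was also lower than at starts, at 6.06% against 16.7%.

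Other short genes had fewer peaks than tRNA genes for POLR1A, POLR2A and H3K4me3. At snoRNA, snRNA and miRNA genes of at most 200 bp, 3182 in number, the shares were 2.26% for POLR1A, 8.52% for POLR2A, 9.77% for H3K4me3 and 1.63% for H3K9me3. Windows of the tRNA genes' median width, 2073 bp, laid end to end over the chromosomes had a peak in 0.298%, 1.51%, 1.53% and 1.41% of cases for POLR1A, POLR2A, H3K4me3 and H3K9me3. The share of tRNA genes with H3K9me3 was therefore close to that of any stretch of the genome. Among 71 RefSeq pseudogenes with a tRNA symbol, none had a POLR1A or H3K4me3 peak (0%, upper bound of the interval 5.06%), 3 had POLR2A (4.23%, interval 0.880 to 11.9) and 1 had H3K9me3 (1.41%). The tRNA genes with POLR1A rested on 30 distinct peaks at 30 loci, those with POLR2A on 138 peaks at 105 loci, those with H3K4me3 on 119 peaks at 93 loci and those with H3K9me3 on 4 peaks at 3 loci. With a stricter threshold on the authors' q-value (−log10 q of at least 5), POLR1A was left at 7 tRNA genes (1.63%, against 5.2% of protein-coding starts) and POLR2A at 23.1% (against 32.1%).

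**Figure D1:**
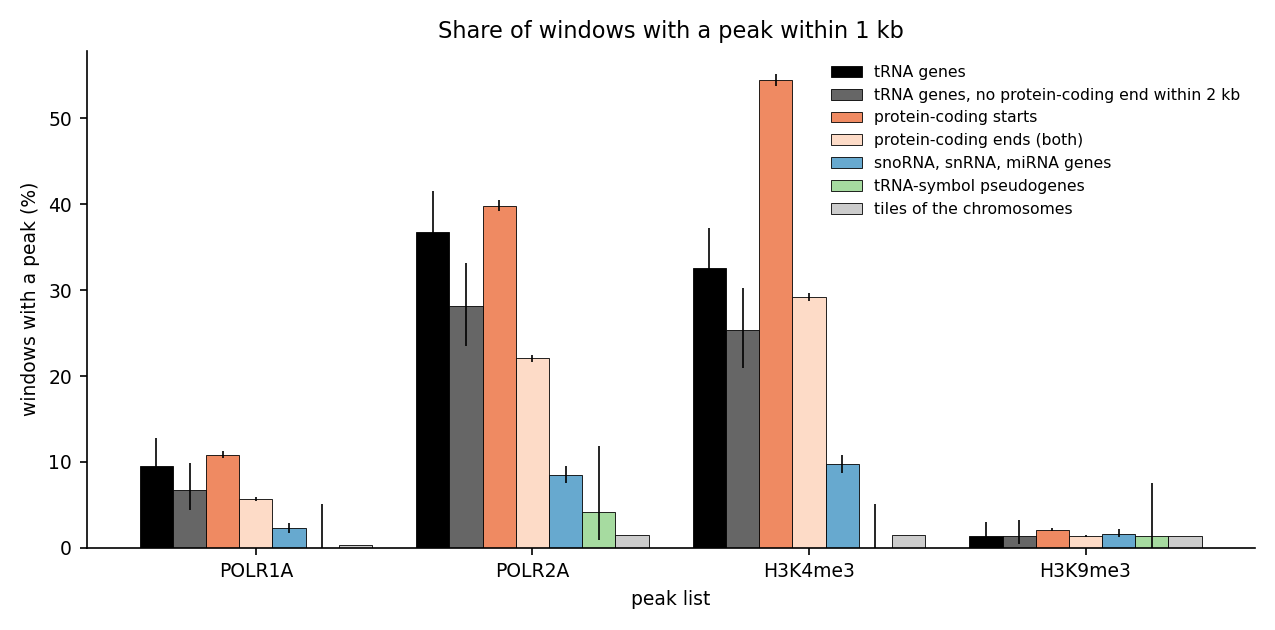
Bars give the percentage of windows with a peak of each list (horizontal axis), with exact 95% intervals as error bars, for tRNA genes, tRNA genes without a protein-coding end within 2 kb, and the classes used as background. For POLR1A and POLR2A all tRNA genes, at 9.56% and 36.8%, stand near protein-coding starts and above the snoRNA, snRNA and miRNA genes. Those without a protein-coding end within 2 kb stand below starts, at 6.76% and 28.2%. For H3K9me3 all classes lie between 1.4% and 2.09%.

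Where peaks were present at tRNA genes, those of POLR2A lay closest to the gene. Of the 158 genes with POLR2A, 91 had the peak on the gene itself, as had 17 of 41 for POLR1A, 69 of 140 for H3K4me3 and 1 of 6 for H3K9me3. The median distance from the middle of the gene to the nearest summit was 185.5 bp for POLR2A, 311 bp for POLR1A and 461.5 bp for H3K4me3. A POLR2A summit fell within 250 bp of 21.9% of all tRNA genes, against 28.6% of protein-coding starts and 2.58% of small RNA genes. For POLR1A the same share was 4.43% at tRNA genes, against 6.57% at protein-coding starts and 0.566% at small RNA genes. For H3K4me3 it was 9.09% at tRNA genes, against 27.3% at protein-coding starts and 1.98% at small RNA genes, and at tRNA genes the next bins out to 750 bp held about as many summits. POLR2A peaks at tRNA genes had a median fold of 6.05, against 5.47 for the whole list. POLR1A peaks had a median fold of 5.09, against 5.44 for the whole list, and H3K4me3 peaks 7.73, against 9.03.

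**Figure D2:**
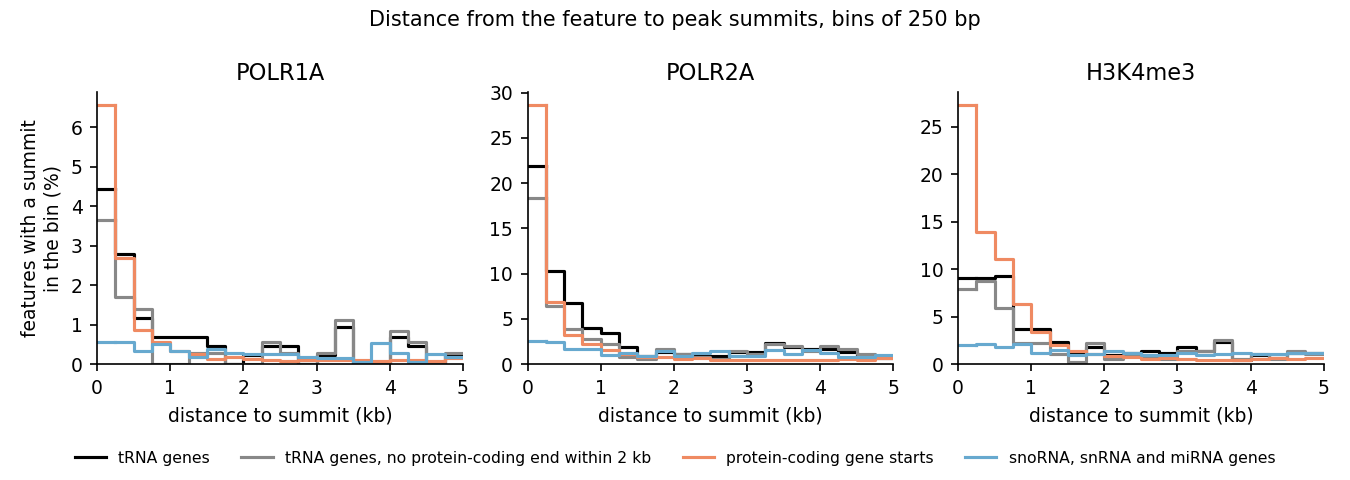
Each line gives the percentage of features with a peak summit in successive bins of 250 bp of distance (horizontal axis, kb), for tRNA genes, tRNA genes without a protein-coding end within 2 kb, protein-coding starts and snoRNA, snRNA and miRNA genes, with a panel per target and separate vertical scales. In the nearest bin tRNA genes reach 4.43% for POLR1A, 21.9% for POLR2A and 9.09% for H3K4me3.

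Few peaks lay near the limit of 1 kb. The farthest POLR1A peak counted lay 803 bp from TRV-CAC1-5, and the nearest not counted lay 1035 bp from TRE-TTC1-2. For POLR2A the farthest counted was 952 bp away (TRG-GCC1-3) and the nearest not counted 1027 bp (TRP-TGG3-2). For H3K4me3 these distances were 885 bp (TRD-GTC2-10) and 1026 bp (TRG-TCC3-1), and for H3K9me3 708 bp (TRG-TCC2-3) and 1306 bp (TRG-GCC1-1).

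Peaks of different targets gathered at the same tRNA genes. No peak of any list was found at 240 of 429 genes (55.9%), and no gene had peaks of all 4 lists. Genes with no list, with all 4 lists or with an exact combination were not counted in other classes, so these counts have no background. With H3K9me3 at only 6 tRNA genes, its absence from genes with POLR1A says little. POLR2A with H3K4me3 marked 69 genes, POLR2A alone 45, POLR1A with POLR2A and H3K4me3 39, and H3K4me3 alone 28. POLR1A was found without POLR2A only at TRI-AAT5-2, an isoleucine tRNA gene at chr6:27177215-27177288, with a POLR1A fold of 4.32 and an H3K4me3 fold of 7.87. It was found without H3K4me3 only at TRG-GCC1-5, a glycine tRNA gene at chr21:17454789-17454859, with a POLR1A fold of 7.06 and a POLR2A fold of 8.82. H3K9me3 shared a gene with POLR2A and H3K4me3 at 3 genes, with POLR2A alone at 1 and with POLR1A at none. POLR2A was thus present at 40 of the 41 tRNA genes with POLR1A (97.6%). It was likewise present at 2318 of the 2405 protein-coding starts with POLR1A. At snoRNA, snRNA and miRNA genes with POLR1A it was present at 68 of 72, so this pairing was not particular to tRNA genes.

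Both polymerases were found at 40 of the 429 tRNA genes, 9.32% (6.74 to 12.5), against 10.5% of protein-coding starts, 5.46% of protein-coding ends, 2.14% of snoRNA, snRNA and miRNA genes and 0.217% of tiles. Of the 158 tRNA genes with POLR2A, 40 also had POLR1A, 25.3% (18.7 to 32.8), against 26.3% at protein-coding starts and 24.7% at protein-coding ends with POLR2A, 25.1% at small RNA genes with POLR2A and 14.4% of chromosome tiles with POLR2A. H3K4me3 was present at 111 of the 158, 70.3% (62.5 to 77.3), against 97.3% at protein-coding starts with POLR2A and 72% at small RNA genes with POLR2A. Among the 111 tRNA genes with POLR2A and H3K4me3, 39 had POLR1A, 35.1% (26.3 to 44.8), against 26.9% of protein-coding starts with the same pair. Among the 47 with POLR2A and no H3K4me3, 1 had POLR1A, 2.13% (0.0539 to 11.3). Protein-coding starts with POLR1A and POLR2A also mostly had H3K4me3, at 2308 of 2318, as had 39 of the 40 tRNA genes with both polymerases. Among all starts with POLR2A, 8573 of 8813 had H3K4me3. The rarity of POLR1A without H3K4me3 was thus not particular to tRNA genes. At the 40 tRNA genes with both polymerases the peaks shared a base in 38 cases. Their summits were a median of 100 bp apart, and 30 pairs lay within 200 bp. How often POLR1A and POLR2A reads come from the same cells is not given by these lists.

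tRNA genes with stronger POLR2A peaks more often had a POLR1A peak. The 158 genes were ordered by POLR2A fold into 3 groups. In the lowest, with folds of 2.72 to 5.49, 2 of 53 genes had POLR1A (3.77%, interval 0.460 to 13.0). In the middle, with folds of 5.50 to 7.86, 8 of 53 had it (15.1%, interval 6.75 to 27.6). In the highest, with folds of 7.97 to 18.6, 30 of 52 had it (57.7%, interval 43.2 to 71.3). Protein-coding starts with POLR2A folds in the same ranges had POLR1A at 4.27%, 11.3% and 36.2%. H3K4me3 also went up over the tRNA groups, at 50.9%, 71.7% and 88.5% of genes, and so did the share with a protein-coding end within 2 kb, at 26.4%, 39.6% and 44.2%, and their part in the result was not tested.

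**Figure D3:**
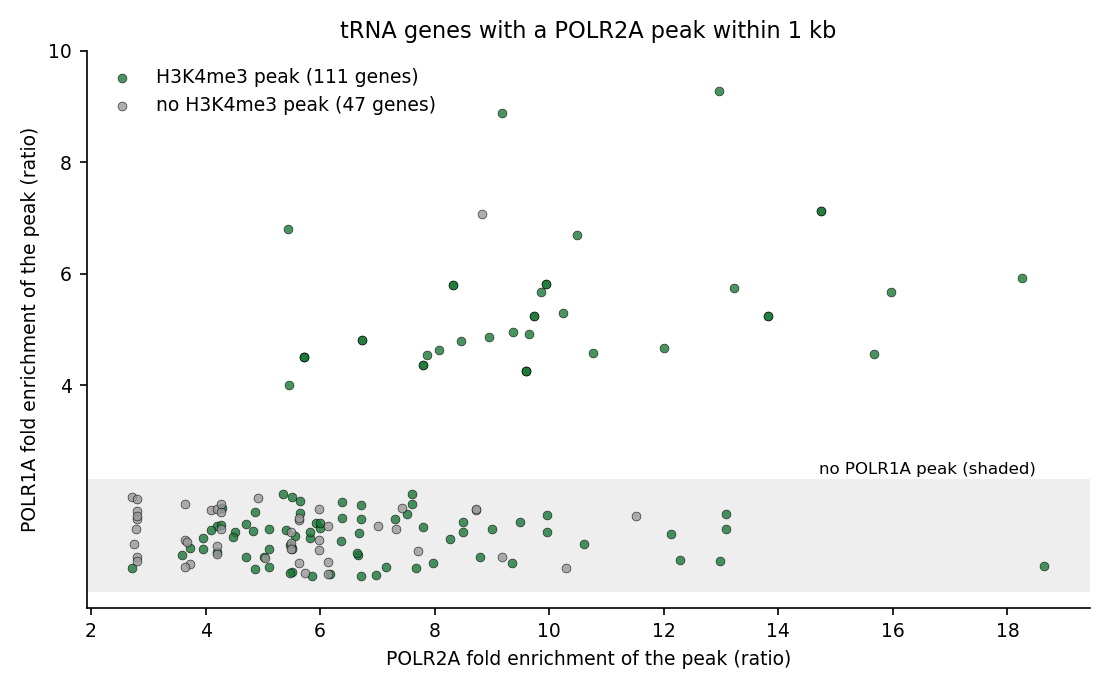
Each point is a tRNA gene with a POLR2A peak within 1 kb, placed by the authors' fold enrichment of the POLR2A peak (horizontal axis) and of the POLR1A peak (vertical axis), with genes that have no POLR1A peak spread in the shaded band. Most points with POLR1A lie to the right and carry H3K4me3 (39 of 40), and darker points are genes that share a peak.

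Among POLR1A peaks at tRNA genes the highest folds were at genes of several amino acids. TRQ-TTG1-1, a glutamine tRNA gene at chr17:49192528-49192599 that lies 13635 bp from the nearest protein-coding end (GNGT2), had a POLR1A fold of 9.27, a POLR2A fold of 13.0 and an H3K4me3 fold of 9.22. TRX-CAT1-8, an initiator methionine tRNA gene at chr17:82494721-82494792, had folds of 8.89, 9.18 and 5.68 in the same order. Both were thus among the upper POLR1A peaks of the whole list, at percentiles of 90.8 and 89.2. TRY-GTA2-1 (tyrosine, chr2:27050782-27050870) and TRA-AGC8-1 (alanine, chr2:27051214-27051286) lie inside AGBL5 and shared a POLR1A peak of fold 7.12 and a POLR2A peak of fold 14.7. TRH-GTG1-4 (histidine, chr1:148302734-148302805) had a POLR1A fold of 6.80 and a POLR2A fold of 5.44. TRE-TTC2-1 (glutamate, chr13:44917927-44917998) had 6.70 and 10.5. Of these genes, the pair in AGBL5 lay within 2 kb of a protein-coding end and the others did not. TRL-CAG2-1 and TRL-CAG2-2, leucine genes at chr16:57299951-57300562, shared a POLR1A peak of fold 5.81 and a POLR2A peak of fold 9.94.

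TRG-CCC2-1, the glycine gene of the first printed window (chr2:70248991-70249061), lies 198 bp from the start of TIA1, which encodes an RNA-binding protein. It had a POLR1A fold of 5.91, a POLR2A fold of 18.3 and an H3K4me3 fold of 21.1. TRR-ACG2-1, the arginine gene of the second window (chr3:45688999-45689071), had folds of 5.75, 13.2 and 14.2 for the same targets. The 2 genes were alike in having H3K4me3 summits farther away, at 618 and 562 bp, than POLR1A summits, at 247 and 144 bp.

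The strongest POLR2A peak at a tRNA gene had no POLR1A peak beside it. It belonged to TRR-TCG1-1, an arginine gene at chr15:89335073-89335145 that lies 249 bp from an end of POLG, the gene of the mitochondrial DNA polymerase, with a POLR2A fold of 18.6 and an H3K4me3 fold of 10.7. Next after TRG-CCC2-1 came TRV-TAC3-1 (valine, chr10:5853711-5853783) with a POLR2A fold of 15.96 and TRM-CAT2-1 (elongator methionine, chr16:71426493-71426565) with 15.7, both with POLR1A, at folds of 5.67 and 4.55. TRP-AGG2-6 and TRT-TGT3-1, proline and threonine genes of a cluster of 4 on chromosome 14, shared a POLR2A peak of fold 13.8 and a POLR1A peak of fold 5.23. TRG-TCC1-1 and TRV-CAC3-1 beside DPP9, at chr19:4724070-4724707, shared a POLR2A peak of fold 13.1 and had no POLR1A peak.

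For H3K4me3 the next highest folds after TRG-CCC2-1 were 19.6 at TRD-GTC2-8 (aspartate, inside LTA4H), 16.9 at TRS-GCT4-2 (serine, beside KNL1) and 15.9 at TRI-TAT2-2 (isoleucine, the third printed window, inside LINC00240). TRD-GTC2-8 had POLR1A and POLR2A folds of 4.53 and 7.86. TRS-GCT4-2 had a POLR2A fold of 6.17 and no POLR1A peak, and TRI-TAT2-2 had neither polymerase. TRR-CCT4-1 (H3K4me3 fold 15.0), TRR-ACG1-3 (14.6) and TRX-CAT1-1 (14.2) lay 228, 325 and 257 bp from an end of LUC7L2, PRMT5 and ILF2 and had POLR1A folds of 5.67, 5.30 and 4.64.

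The 6 tRNA genes with H3K9me3 lay on chromosomes 1 and 6. TRG-GCC1-3 had a fold of 7.39 and TRE-CTC1-3 and TRG-TCC2-3 shared a peak of fold 5.998, all in the cluster of 24 genes on chromosome 1. TRP-CGG1-1 and TRP-AGG2-1, at chr1:167714725-167715559, shared a peak of fold 4.53 and had POLR2A folds of 4.87 and 5.92 and a shared H3K4me3 peak of fold 7.22. TRX-CAT1-2 on chromosome 6 had an H3K9me3 fold of 5.50.

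Neighbouring protein-coding genes went with peaks at tRNA genes. Of the 74 tRNA genes with a protein-coding gene end within 2 kb, 17 had POLR1A (22.97%, interval 14.0 to 34.2), 58 had POLR2A (78.4%, 67.3 to 87.1) and 50 had H3K4me3 (67.6%, 55.7 to 78.0). Of the 355 without such an end, 24 had POLR1A (6.76%, 4.38 to 9.89), 100 had POLR2A (28.2%, 23.5 to 33.2) and 90 had H3K4me3 (25.4%, 20.9 to 30.2). The intervals of both groups did not overlap for any of these targets. Away from protein-coding ends, snoRNA, snRNA and miRNA genes had POLR1A, POLR2A and H3K4me3 at 1.08%, 3.74% and 3.63%. Among all such genes the shares were 2.26%, 8.52% and 9.77%. Chromosome tiles away from ends had 0.156%, 0.898% and 0.464%, against 0.298%, 1.51% and 1.53% of all tiles. Shares in both classes were thus also lower away from protein-coding ends, so the difference was not particular to tRNA genes. Leaving out also tRNA genes near an end of any other RefSeq gene, an alternative chosen after the data were seen, left 307 genes with 6.51% POLR1A, 29.0% POLR2A and 25.4% H3K4me3.

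The 43 tRNA genes inside a protein-coding gene had POLR1A in 13 cases (30.2%, 17.2 to 46.1), against 28 of 386 outside (7.25%, 4.87 to 10.3). POLR2A was present at 65.1% of the genes inside, against 33.7% outside, and H3K4me3 at 46.5% inside, against 31.1% outside. Of the 22 tRNA genes inside a protein-coding gene but more than 2 kb from any protein-coding end, 3 had POLR1A (13.6%, 2.91 to 34.9), against 21 of 333 genes outside and as far from an end (6.31%, 3.95 to 9.48). These intervals overlap. In the same groups POLR2A was at 45.5% inside, against 27.0% outside (24.4 to 67.8, against 22.3 to 32.1), and H3K4me3 was at 22.7% inside, against 25.5% outside, so its direction turned. A protein-coding end lay within 2 kb of 48.8% of all genes inside, against 13.7% of those outside.

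The amino acid classes differed in their shares, mostly within wide intervals. POLR1A was found at 7 of 26 arginine genes (26.9%, 11.6 to 47.8), 4 of 13 aspartate genes and 4 of 13 tyrosine genes (each 30.8%, 9.09 to 61.4), and at 2 of 8 initiator methionine and 2 of 9 histidine genes. It was found at none of 29 cysteine genes (upper bound of the interval 11.9%), 27 lysine genes (12.8%), 21 asparagine genes (16.1%), 11 phenylalanine genes (28.5%) and 2 selenocysteine genes. Of the 22 classes, only arginine had an interval that lay above the share of all tRNA genes, 9.56%. A protein-coding end lay within 2 kb of 10 of the 26 arginine genes and 5 of the 13 tyrosine genes, against 74 of all 429 tRNA genes, and its part in the result was not tested. The arginine peaks came from 5 of the 20 loci with arginine genes, since TRR-TCG3-1, TRR-CCT1-1 and TRR-CCT2-1 inside KCTD2 shared a POLR1A peak of fold 4.25. The arginine interval counts these 3 genes as independent and is too narrow for that reason. No interval by locus was made for the classes, and none was adjusted for the 22 classes compared. Arginine is therefore not shown to differ from the other classes.

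POLR2A was lowest at alanine genes, with 5 of 37 (13.5%, 4.54 to 28.8), against 36.8% of all tRNA genes, and its highest share among classes of 10 or more genes was at serine genes, with 14 of 26 (53.8%, 33.4 to 73.4). H3K4me3 was lowest at cysteine genes, with 3 of 29 (10.3%, 2.19 to 27.4), and alanine genes, with 4 of 37 (10.8%, 3.03 to 25.4), and highest at histidine genes, with 7 of 9 (77.8%, 40.0 to 97.2). Cysteine genes with POLR2A, 8 of 29, thus outnumbered those with H3K4me3. Many alanine genes lie on chromosome 6, where tRNA genes had POLR2A at 14.3% and H3K4me3 at 15.6%, against 49.5% and 42.2% elsewhere. The part of chromosome 6 in the alanine shares was not tested. By anticodon, chosen here after the values were seen, all 4 leucine TAA genes and all 4 proline CGG genes had POLR2A, and 2 of 25 alanine AGC genes had it.

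**Figure D4:**
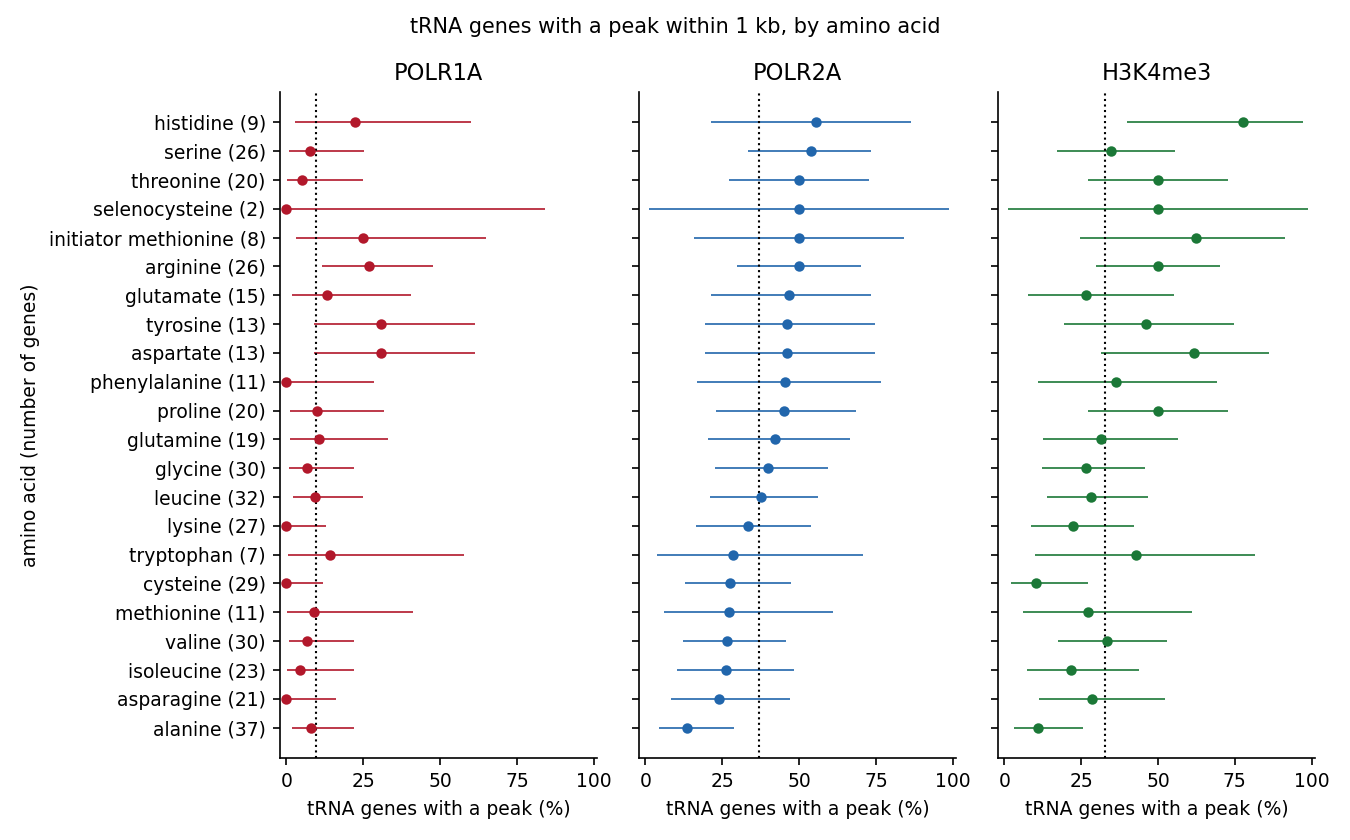
Points give the percentage of tRNA genes with a peak within 1 kb for each amino acid class (rows, number of genes in brackets, ordered by POLR2A), with exact 95% intervals, and dotted lines give the share over all 429 genes. For POLR1A arginine, tyrosine and aspartate stand highest at 26.9% to 30.8%, while alanine stands lowest for POLR2A at 13.5%.

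The initiator methionine tRNA starts every protein chain, and its 8 gene copies, which share a mature sequence by their number, differed widely. TRX-CAT1-1 on chromosome 1 had POLR1A, POLR2A and H3K4me3 at folds of 4.64, 8.07 and 14.2, and TRX-CAT1-8 had the values given above. TRX-CAT1-5 had POLR2A (3.73) and H3K4me3 (9.09), TRX-CAT1-2 had POLR2A (2.72), H3K4me3 (7.18) and H3K9me3, and TRX-CAT1-7 had H3K4me3 alone (5.42). TRX-CAT1-3, TRX-CAT1-4 and TRX-CAT1-6, all on chromosome 6, had no peak. Of the selenocysteine tRNA genes, which insert selenocysteine at UGA codons, TRU-TCA1-1 at chr19:45478601-45478687 had a POLR2A fold of 4.83 with a summit 17 bp away and an H3K4me3 fold of 7.77. TRU-TCA2-1 at chr22:44150657-44150740, inside PARVB, had no peak.

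Copies with the same mature sequence differed elsewhere too. The largest such family was TRD-GTC2, 11 aspartate genes at 7 loci, of which 7 had a peak of some list and 3 had POLR1A. Of the 9 histidine genes of TRH-GTG1, 7 had a peak and 2 had POLR1A. None of the 7 leucine genes of TRL-CAG1 had POLR1A or POLR2A, and 2 had H3K4me3, TRL-CAG1-1 at a fold of 14.6 and TRL-CAG1-6 at 6.66. By number of copies, genes with 1 copy had POLR1A, POLR2A and H3K4me3 at 8.04%, 35.2% and 27.6% of 199 genes. The shares were 9.68%, 38.7% and 26.9% of 93 genes with 2 to 4 copies, and 12.4%, 40.3% and 46.5% of 129 genes with 5 or more. A protein-coding end lay within 2 kb of 11.6%, 23.7% and 22.5% of the genes in these groups. Away from such ends, POLR2A was at 27.9% of genes with several copies or no copy number, against 28.4% of those with 1 copy. Near ends it was at 74.5%, against 87.0%, so the small increase of POLR2A with copy number was not seen there. The 8 genes with no copy number had no POLR2A peak and no protein-coding end within 2 kb. They lower the pooled share away from ends, so these values do not settle whether the increase is present there. Away from ends H3K4me3 was at 29.6% with several copies or no number, against 21.0% with 1 copy, and near ends at 62.7%, against 78.3%. The way reads from identical copies were placed can decide whether such copies show a peak, and the sources used here do not give it.

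Large clusters had peaks at a smaller share of their genes, but as loci they did not have fewer peaks. In the 12 clusters of 5 or more tRNA genes, 2 of 109 genes had POLR1A (1.83%, 0.223 to 6.47), 29 had POLR2A (26.6%, 18.6 to 35.9) and 21 had H3K4me3 (19.3%, 12.3 to 27.9). Of the 184 genes in clusters of 2 to 4, 12.5%, 38.6% and 37.0% had these peaks, and of the 136 genes alone 11.8%, 42.6% and 37.5%. The interval for POLR1A in large clusters lay below both other shares, and 9.17% of the genes in large clusters had a protein-coding end within 2 kb, against 19.0% in clusters of 2 to 4 and 21.3% of genes alone. Several of the large clusters also lie on chromosome 6, whose tRNA genes had fewer peaks, as given below. The part of this distance and of chromosome 6 in the result was not tested. Counted by locus, 30 of 216 had POLR1A (13.9%, 9.57 to 19.2), 105 had POLR2A (48.6%, 41.8 to 55.5), 93 had H3K4me3 (43.1%, 36.4 to 49.9) and 3 had H3K9me3. Of the 12 large clusters, 2 had POLR1A at some gene (16.7%, 2.09 to 48.4), 9 had POLR2A (75%, 42.8 to 94.5) and 8 had H3K4me3 (66.7%, 34.9 to 90.1), against the 11.8%, 42.6% and 37.5% of loci with 1 gene given above. A cluster has more genes at which a peak can be counted. No locus had peaks of all 4 lists, and only 3 had H3K9me3.

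The cluster of 24 genes at chr1:161440171-161480636, which holds genes of 4 amino acid classes, had a peak at 7 genes. POLR2A was present at 2 of them with a highest fold of 2.78, H3K4me3 at 3 with a shared peak of fold 14.6, H3K9me3 at 3 and POLR1A at none. The cluster of 14 genes at chr16:3150674-3192060 had POLR1A at TRP-CGG1-2 (fold 4.66, with a POLR2A fold of 12.0), POLR2A at 3 genes and H3K4me3 at 5. The cluster of 12 genes at chr6:26299677-26331515 had POLR1A at TRR-TCG2-1 (fold 4.0, the lowest at any tRNA gene), POLR2A at 4 and H3K4me3 at 3. Among the 8 genes at chr11:59550629-59566452, 7 had POLR2A, with a fold of up to 10.6, 4 had H3K4me3 and none had POLR1A. By contrast the 8 genes at chr6:28789770-28823389, the 7 at chr6:28710589-28747816 and the 6 at chr6:28941053-28953337 had no peak of any list.

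**Figure D5:**
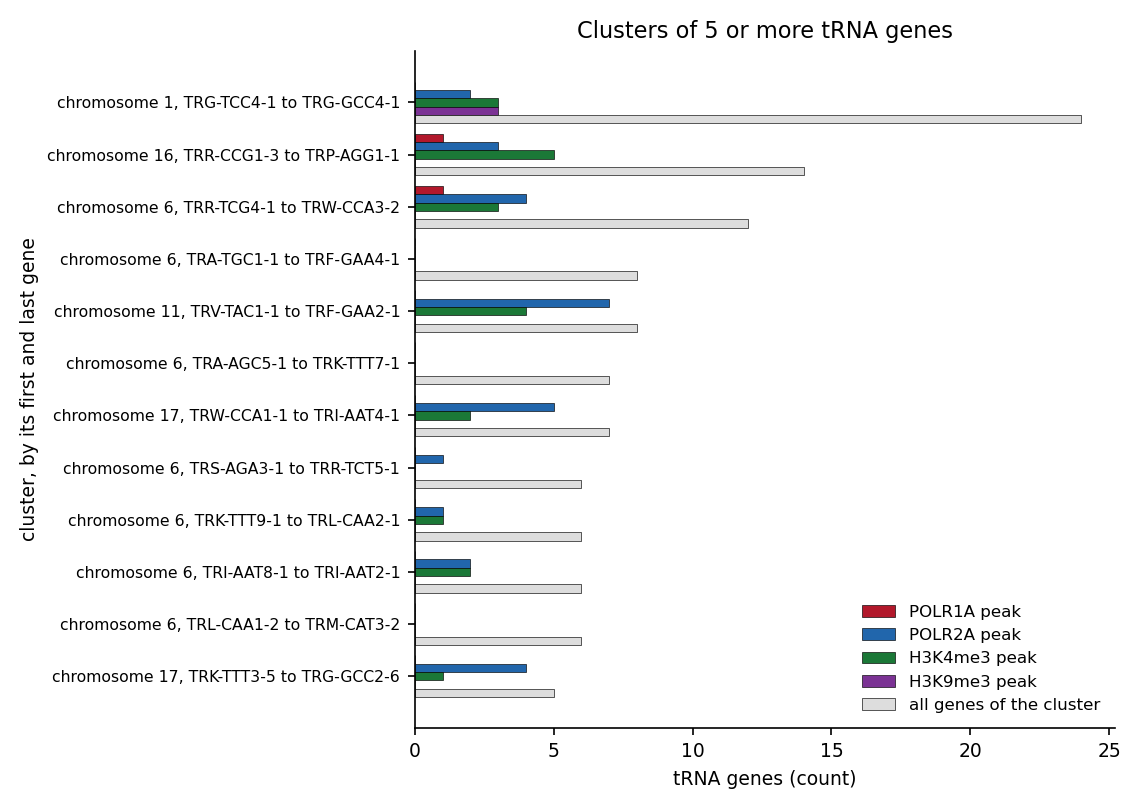
Horizontal bars give, for each cluster of 5 or more tRNA genes, the number of genes with a peak of each list within 1 kb and, in grey, the number of genes in the cluster. On chromosome 6, 3 of the clusters have no peak, and the cluster on chromosome 11 has POLR2A at 7 of 8 genes.

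Chromosome 6 held 154 of the 429 tRNA genes and had few of the peaks. POLR1A was present at 4 of its tRNA genes (2.60%, 0.712 to 6.52), against 37 of 275 on other chromosomes (13.5%, 9.65 to 18.1). POLR2A was present at 22 (14.3%, 9.17 to 20.8), against 136 on other chromosomes (49.5%, 43.4 to 55.5), and H3K4me3 at 24 (15.6%, 10.2 to 22.3), against 116 (42.2%, 36.3 to 48.3). A protein-coding end lay within 2 kb of 3.25% of the tRNA genes on chromosome 6, against 25.1% elsewhere, and its part in the result was not tested.

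Other genes transcribed by RNA polymerase III were set beside the tRNA genes as a list of 37 at 17 loci, chosen with earlier results known. Of these, 6 had POLR1A (16.2%, 6.19 to 32.0), 11 had POLR2A (29.7%, 15.9 to 47.0) and 15 had H3K4me3 (40.5%, 24.8 to 57.9), and none had H3K9me3 (upper bound 9.49%). The intervals hold the shares at tRNA genes, 9.56%, 36.8% and 32.6%, and lie above those at snoRNA, snRNA and miRNA genes, 2.26%, 8.52% and 9.77%. They count the 17 5S ribosomal RNA genes of a tandem array as independent, and 16 of these, without a peak, lower the shares. The list was not counted without that array, so a likeness of its other genes to tRNA genes is not shown. The list as first written also held NRSN2-AS1, which RefSeq gives as a lncRNA gene and which was left out after the values were seen, and with it 7, 12 and 16 of 38 genes had these peaks (18.4%, 31.6% and 42.1%). RN7SL1 and RN7SL2, which encode the RNA of the signal recognition particle, had POLR1A folds of 6.04 and 6.37 and POLR2A folds of 14.8 and 13.8. RN7SK, whose RNA holds back the elongation factor P-TEFb, had 6.0 and 13.1, and RMRP, the RNA of RNase MRP, had 5.04 and 10.9. RNU6-1, a U6 spliceosomal RNA gene, had POLR1A (4.25) and H3K4me3 (10.2) without POLR2A. Of the 17 5S ribosomal RNA genes listed, which stand in a tandem array, RNA5S17 at its edge had POLR1A (5.19) and H3K4me3 (13.7) and the other 16 had no peak, as had RPPH1.

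The genes of RNA polymerase III itself and its factors are protein-coding and were counted at their own ends. Of 31, 9 had POLR1A (29.0%, 14.2 to 48.0), against 11.2% of all 19821 protein-coding genes counted at either end in the same way. POLR2A was at 24 of them (77.4%, 58.9 to 90.4), against 41.3% of all protein-coding genes, and H3K4me3 at 30 (96.8%, 83.3 to 99.9), against 54.6%. Among protein-coding starts with POLR2A, 26.3% had POLR1A, which lies inside the POLR1A interval of this list. The part of the higher POLR2A share in the POLR1A share was not tested. TBP, the TATA-binding protein used by all 3 polymerases, had a POLR1A fold of 7.37, MAF1, a repressor of RNA polymerase III, had 6.92 and POLR3D, a subunit, had 4.82. POLR3E, another subunit, had H3K4me3 (17.3) but no polymerase peak. The leucine gene TRL-AAG2-4, 188 bp from the start of POLR3E, had no peak within 1 kb.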

How the data were processed

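CUT&Tag in HCT116 cells was made with the Active Motif kit from 100000 to 200000 cells per replicate, per the labels' protocols, with 3 samples each for POLR1A, POLR2A and H3K9me3 and 1 for H3K4me3. The authors deposited 4 peak lists in the narrow peak format of MACS2. In each list the fold enrichment is a linear ratio, the q-value is given as −log10, and an integer score restates the q-value, as the deposited files hold them. The deposited offset of the summit from the peak start was used to place it. The list for H3K4me3 is that of its only sample, while no replicate is named for the others. Per the submitters' processing notes, which give no roles, the builds were GRCh38 and hg38 and the tools included DESeq2 1.44.0, HTSeq 2.0.2, RSEM 1.3.3, STAR, SAMtools 1.6, FastQC 0.12.0 and deepTools 3.1.1. Settings of the peak caller, its control, whether replicates were pooled and how reads from repeats were placed: not given in the sources used here.

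Genes came from a RefSeq table of GRCh38.p14 without strand or exons. Scaffold genes were told apart by the order of the table. A gene had a peak when any base of a peak lay within 1 kb of it, and its value is the highest fold of those peaks. The motif cores were chosen after the data were seen. Clusters joined genes with gaps of at most 10 kb. Protein-coding starts came from the RefSeq promoter table, which gives strand. With 1 list per target there are no replicate values, so shares with exact 95% intervals stand in place of tests. Python 3.11.15, pandas 2.3.3, NumPy 2.4.6 and SciPy 1.17.1 were used, and the overlap code was tested on 400 simulated intervals, with 0 differences from a brute-force search. The tRNA genes, the comparison lists and the alternatives were chosen with earlier results of these data known. Genes named are those with the 8 highest folds of each list, distinct peaks counted once, tRNA genes with POLR1A and no POLR2A, the largest clusters, the initiator methionine and selenocysteine genes, the comparison lists, and others where the text says so or where they bound a window or a family.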

Additional observations from a re-analysis of the deposited data

Results flagged for a closer look

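The mitochondrial genome carries 22 tRNA genes of its own, transcribed by a separate RNA polymerase, and they entered no comparison. Peaks on that genome numbered 9 for POLR1A, 15 for POLR2A, 5 for H3K4me3 and 7 for H3K9me3, and some covered these genes. The part of that genome under peaks was not measured, so the counts of genes below have no background. Of the 22 genes, 5 lay under a POLR1A peak, 2 under a POLR2A peak, 2 under an H3K4me3 peak and 5 under an H3K9me3 peak. The folds of the peaks there were 1.25 to 3.22 for POLR1A, 1.57 to 3.68 for POLR2A, 1.51 to 3.34 for H3K4me3 and 1.21 to 2.41 for H3K9me3. The lowest folds at nuclear tRNA genes were higher for POLR1A, at 4.0, and for H3K9me3, at 4.53. For POLR2A, at 2.72, and H3K4me3, at 2.46, the lowest folds at nuclear tRNA genes lay inside the mitochondrial ranges. The lists of all 4 targets held such peaks, and no control list was used here to set them against.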

How the results depend on the processing

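No paired analysis was possible because each target has 1 peak list with no values per replicate, so leaving out a replicate could not be run either. The values that moved beyond their interval follow, and beyond the fewer peaks or genes that a setting leaves, the cause was not tested. Without a window, counting only peaks on the gene, shares were 3.96% for POLR1A, 21.2% for POLR2A, 16.1% for H3K4me3, 0.233% for H3K9me3 and 3.73% for both polymerases. With 2 kb on each side H3K4me3 was 37.3%. At a −log10 q of at least 5, POLR1A was 1.63%, POLR2A 23.1% and both polymerases 1.63%, with 6 loci for POLR1A and 69 for POLR2A, and H3K4me3, at 28.9%, was then above POLR2A. With lists reduced to the 3812 strongest peaks, POLR1A, at 9.56%, was above the other targets, POLR2A was 6.06%, H3K4me3 3.50% and both polymerases 3.50%, with 21 loci for POLR2A, against 16.7% and 16.4% of protein-coding starts for POLR2A and H3K4me3. Without tRNA genes near a protein-coding end the values for POLR1A, POLR2A, H3K4me3 and both polymerases were 6.76%, 28.2%, 25.4% and 6.48%. Without those near an end of any other gene they were 6.51%, 29.0%, 25.4% and 6.19%. Without chromosome 6 they were 13.5%, 49.5%, 42.2% and 13.5%. With each cluster counted once they were 13.9%, 48.6%, 43.1% and 13.4%. Without chromosome 1 H3K9me3 was 0.291%. Windows of 500 bp and the requirement of a summit in the window moved no share beyond its interval, and cluster gaps of 5 and 20 kb left the counts of loci within 1.5 times. Depth is unknown, so the absence of a peak is no absence of the protein.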
